A study of Homo sapiens with 4 samples.

Results

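The genes of glycolysis and of the response to low oxygen were followed in 4 sorted fractions of the PC14 line, which comes from a human lung cancer of the non-small-cell type. The list held 38 genes, chosen for their roles in glucose uptake, glycolysis, the use of pyruvate and glycogen, oxygen sensing and the hypoxia response, and all probe sets under their symbols in the platform annotation were taken. Of these 38 genes, 36 had a probe set, 81 probe sets in all, out of 19775 genes in the table. CA9 and SLC16A3 had no probe set under their symbols and were not analysed here. PC14 cells had been sorted by fluorescence for high or low surface E-cadherin. Each fraction was then sorted for high or low CD133 with a lentiviral construct that expresses GFP from the CD133 P1 promoter, so a CD133 group is defined by reporter brightness. The groups were thus E-cadherin-high CD133-high (labelled E+CD133+), E-cadherin-high CD133-low (E+CD133-), E-cadherin-low CD133-high (E-CD133+) and E-cadherin-low CD133-low (E-CD133-). All 4 went through both sorts, and total RNA from each was hybridised to 1 biotin-labelled Affymetrix array. With 1 array per group no difference below has a replicate check.

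Glycolysis splits glucose into pyruvate, which is reduced to lactate or passed to the mitochondria. When oxygen is short, prolyl hydroxylases of the EGLN family stop marking the HIF alpha subunits for degradation, and HIF then binds DNA at short elements with the core ACGTG or GCGTG near its target genes. Glucose transporters, most glycolytic enzymes, LDHA, PDK1, the carbonic anhydrase CA9, VEGFA, ADM, BNIP3 and EGLN1 and EGLN3 themselves are known HIF targets, while HIF1A is controlled mainly at the protein level. Lung cancer cells often run glycolysis at a high rate even with oxygen present.

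The promoters of the genes that differed at least 2-fold with CD133 in both E-cadherin states are shown first, since these genes carry the main comparison. RefSeq windows (build GRCh38.p14) were at hand for 34 of the 38 genes, and not for BNIP3L, NDRG1, SLC2A3 and VEGFA. Each sequence is the 250 bases before the annotated gene start, written 5′ to 3′ on the gene's strand, and capitals mark matches to ACGTG or GCGTG on either strand, with overlapping matches merged. The letters CACGTG, also known as the E-box bound by MYC and other factors, hold ACGTG on both strands. ADM, HK2 and EGLN1 were lower in CD133-high cells, and ALDOC was higher.
ADM promoter, chr11:10304823-10305072, plus strand: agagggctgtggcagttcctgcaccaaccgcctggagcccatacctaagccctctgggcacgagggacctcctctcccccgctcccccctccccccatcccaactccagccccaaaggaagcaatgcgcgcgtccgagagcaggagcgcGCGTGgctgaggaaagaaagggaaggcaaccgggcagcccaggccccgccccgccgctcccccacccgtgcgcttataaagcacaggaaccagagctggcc
HK2 promoter, chr2:74833877-74834126, plus strand: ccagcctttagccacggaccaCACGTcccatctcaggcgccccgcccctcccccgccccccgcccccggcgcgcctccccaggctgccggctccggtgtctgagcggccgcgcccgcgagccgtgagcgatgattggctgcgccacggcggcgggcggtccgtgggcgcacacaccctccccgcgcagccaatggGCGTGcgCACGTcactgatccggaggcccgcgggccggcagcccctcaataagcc
EGLN1 promoter, chr1:231422288-231422537, minus strand: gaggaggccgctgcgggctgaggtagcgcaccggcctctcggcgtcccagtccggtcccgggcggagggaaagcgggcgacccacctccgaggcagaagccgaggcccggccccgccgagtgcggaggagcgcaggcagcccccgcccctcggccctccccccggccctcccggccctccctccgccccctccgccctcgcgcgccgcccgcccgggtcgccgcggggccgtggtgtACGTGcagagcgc
ALDOC promoter, chr17:28576896-28577145, minus strand: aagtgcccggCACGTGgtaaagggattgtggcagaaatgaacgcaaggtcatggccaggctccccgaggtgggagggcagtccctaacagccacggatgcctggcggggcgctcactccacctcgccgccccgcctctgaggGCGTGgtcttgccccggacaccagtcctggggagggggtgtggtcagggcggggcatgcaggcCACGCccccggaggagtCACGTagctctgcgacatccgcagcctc

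The ADM window held 1 site, GCGTG, whose first base lies 101 bases before the start. The EGLN1 window also held 1, ACGTG at 13 bases. HK2 had 3 sites in the window shown, at 229, 55 and 48 bases, and 4 in its other window. ALDOC had 4, at 240, 108, 45 and 28 bases, and the site at 240 is CACGTG. Sites were thus present both in genes that were lower and in the gene that was higher. Among all 61 windows of the 34 genes, 35 held a site (57.4%), against 43.2% of all 35116 windows. Counted by gene, 27 of the 34 (79.4%) held a site in at least 1 window, against 47.4% of the genes in the table, and these 34 genes had more windows each, 1.79 against 1.29 on average. The windows of these genes were also richer in G and C, with a median of 68.4% against 58%, and the part of base composition in the difference was not tested. A match is a description of letters and not of binding.

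The values are MAS5 intensities, scaled by the authors to near-equal trimmed means of 500.1 per array. The median probe set of each array, 53.7 to 60.3, served as its floor, and lower signals were set to it. Of the 36 genes, 35 exceeded the floor somewhere and are called measured, and 33 did on all 4. ENO2, the neuronal enolase, lay below the floor on every array (4.11 to 10.7). CDH1, the gene of E-cadherin, followed its sort with 5548 and 3546 in E-cadherin-high against 347 and 528 in the E-cadherin-low fractions, while PROM1, the gene of CD133, lay below the floor on all 4 arrays (4.79 to 29.7), so its RNA gave no check of the CD133 sort. Summed signals of 10 epithelial markers were 32355 and 32498 with E-cadherin high, and 16841 and 15638 with it low. EPCAM (6554 and 3760) and KRT18 (7605 and 10434) stayed well above the floor in E-cadherin-low cells, with KRT19 and CLDN4 below the floor on all arrays. MUC1 was 2.61-fold and 4.85-fold lower in E-cadherin-low cells. It was also the 1 epithelial marker counted as higher with CD133 (2.12-fold and 3.94-fold), and 0 were lower. The list's median CD133 log2 ratios were 0.36 and 0.65. Of 8 endothelial markers 6 were below the floor on all arrays and the sums were 233 to 353. Summed signals of 8 leukocyte markers were 1352 and 1470 on the CD133-high arrays and 571 and 730 on the others. CD14, MS4A1 and LYZ were below the floor, and PTPRC carried the difference, with 1246 and 1102 against 346 and 505. The other 4 leukocyte markers above the floor somewhere were near it, and the list's median log2 ratios were -0.06 and 0. The sums of 10 fibroblast markers were 24102 to 32430 on the CD133-high arrays and 18142 to 25024 on the others, with PDGFRA, PDGFRB and THY1 below the floor. Most of each sum was COL3A1 (29221 of 32430 on the array with the highest), whose CD133 log2 ratios were 0.36 and 0.31. LUM and DCN were counted as higher, FAP lay on the other side (-1.14 and -0.99), and the list's medians were 0.35 and 0.31. These marker differences move with the CD133 comparison, and their part in it was not tested.

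The CD133 comparison asks which genes differ between cells sorted as CD133-high, called stem-like in the labels, and CD133-low cells in either E-cadherin state. ALDOC and BNIP3L were higher in CD133-high cells, and ADM, HK2 and EGLN1 were lower, each by at least 2-fold in both pairs of arrays. A pair holds the CD133-high and CD133-low arrays of the same E-cadherin state, and values are given for E-cadherin-high and then for E-cadherin-low cells. The 2 genes higher are 5.71% of the 35 measured and the 3 lower are 8.57%, where over all 14083 measured genes 2.45% were higher and 1.12% were lower by the same rule. The median log2 ratio of the 35 genes, taken over both pairs, was -0.22, against 0 for all measured genes. An additive limma fit of both markers across all measured genes, which has 1 residual degree of freedom and assumes that the markers act independently, called BNIP3L higher and ADM, HK2 and EGLN1 lower after Benjamini-Hochberg adjustment. By this fit 1.31% of all genes were higher and 0.738% lower. At an unadjusted p under 0.05 the limma fit had 14 of the 35 genes, and 18.1% of all genes. When the fit did not let the prior variance follow the signal level, ADM was the gene still called. That version had 10 of the 35 genes, and 16.7% of all genes, at an unadjusted p under 0.05.

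**Figure D1:**
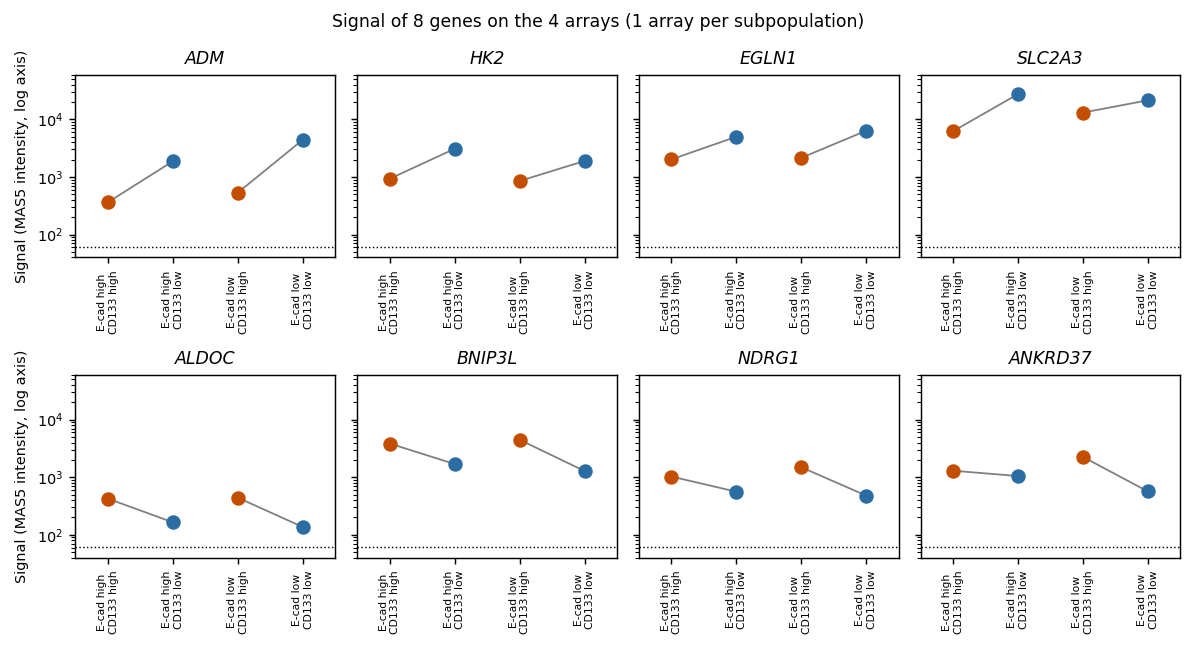
Signal of 8 genes on a log axis for the 4 arrays, orange for CD133-high and blue for CD133-low cells, with lines joining the arrays of one E-cadherin state and a dotted line at the highest floor, 60.3. ADM, HK2, EGLN1 and SLC2A3 are lower in CD133-high cells in both states, and ALDOC, BNIP3L, NDRG1 and ANKRD37 lie higher, ANKRD37 mainly among E-cadherin-low cells.

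ADM encodes adrenomedullin, a secreted peptide that dilates vessels and is induced by hypoxia. It read 364 and 534 on the CD133-high arrays, against 1875 and 4417 on the CD133-low arrays. In sorted bulk samples fewer cells with a transcript and less transcript per cell cannot be told apart, here and below. The differences were 5.15-fold and 8.28-fold, or log2 ratios of -2.37 and -3.05. The fitted CD133 effect was -2.71 (SE 0.27, limma adjusted p = 0.0061). ADM had 1 probe set, so no other probe set could be set beside it. The residual of the limma fit is the difference between the ratios of the 2 pairs, moderated over all genes. Here and below, SE and p therefore do not measure the spread between replicates.

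Among the 4 genes of glucose entry, hexokinase 2 was counted as lower with CD133, and SLC2A1 and SLC2A3 had ratios below 0. HK2, the hexokinase isoform that traps glucose in many tumours, read 928 and 850 on the CD133-high arrays, against 3079 and 1892 on the CD133-low arrays. Its ratios of 3.32-fold and 2.23-fold lower correspond to a fitted effect of -1.44 (SE 0.25, limma adjusted p = 0.037). Its other probe sets, both dimmer, went the same way by less (-0.47 and -0.69 for one, -0.29 and -0.72 for the other). As the mean over its probe sets HK2 had a CD133 ratio of -0.84 and was no longer counted. SLC2A3, the high-affinity glucose transporter GLUT3, read 6216 and 13098 on the CD133-high arrays, against 27485 and 21422 on the CD133-low arrays. The difference was 4.42-fold with E-cadherin high but 1.64-fold with it low, and so the gene was not counted (fitted effect -1.43, SE 0.30, limma adjusted p = 0.063). Its other probe sets gave log2 ratios of -1.80 and -0.88, and of -1.94 and -0.38. SLC2A3 has a near-identical copy, SLC2A14. These probe sets are annotated to SLC2A3 alone, and whether they also take up signal from the copy was not tested.

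SLC2A1, the widely expressed transporter GLUT1, was dim, with 191 and 204 on the CD133-high arrays, against 388 and 363 on the CD133-low arrays. Its ratios were 2.04-fold and 1.78-fold lower, short of the threshold in the E-cadherin-low pair. HK1, the constitutive hexokinase, read 2159 and 2180 against 2199 and 1536, with log2 ratios of -0.03 and 0.51. SLC2A1, SLC2A3 and HK2 thus had lower signals on both CD133-high arrays, and HK1 did not. SLC2A6 and SLC2A10 of the same family lay on the other side, with values given among the further lists.

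In the upper part of glycolysis 1 of 9 genes was counted. ALDOC, the brain-type aldolase and a minor isoform in most tissues, read 424 and 441 on the CD133-high arrays, against 165 and 137 on the CD133-low arrays. These are ratios of 2.58-fold and 3.23-fold higher (fitted effect 1.53, SE 0.33, limma adjusted p = 0.065), from a single probe set. ALDOA, the main aldolase isoform, gave log2 ratios of -0.29 and -0.18, opposite in sign to ALDOC. GPI, which turns glucose 6-phosphate into fructose 6-phosphate, read 2230 and 2551 against 4087 and 3458, ratios of 1.83-fold and 1.36-fold lower. The phosphofructokinase subunits lay nearer 0 by their brightest probe sets. PFKM had log2 ratios of -0.18 and -0.28, PFKP -0.36 and -0.17, and PFKL 0.21 and -0.18. The other PFKL probe set, dimmer but above the floor on all arrays, gave -0.27 and -0.71, so the direction of PFKL depended on the probe set. PFKFB3 and PFKFB4, which make and remove the phosphofructokinase activator fructose 2,6-bisphosphate, were slightly above 0, with 0.34 and 0.16 and with 0.43 and 0.41. TPI1, triose phosphate isomerase, had -0.46 and -0.56.

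In the lower part of glycolysis none of the 5 measured genes was counted, and all 5 had ratios below 0 in both pairs by their brightest probe sets. GAPDH had log2 ratios of -0.29 and -0.15, the phosphoglycerate kinase PGK1 -0.21 and -0.17, the mutase PGAM1 -0.44 and -0.31, the enolase ENO1 -0.38 and -0.60 and the pyruvate kinase PKM -0.19 and -0.31. Of 5 other PGK1 probe sets above the floor, 3 went the same way over both pairs. The rest gave 0.26, a bound, and 0.27, and 0.41 and -0.32. The other PKM probe set gave -0.96 and 0.005. The 3 control probe sets for GAPDH gave -0.36 to -0.26 with E-cadherin high and -0.20 to -0.10 with it low. GAPDH 3' over 5' signal, a measure of RNA integrity, was 0.960 and 1.02 on the CD133-high and 0.898 and 0.963 on the CD133-low arrays. LDHA and LDHB, the subunits of lactate dehydrogenase, followed with -0.32 and -0.37 and with -0.27 and -0.20. PDK1, the kinase that shuts pyruvate dehydrogenase, had -0.20 and -0.51.

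Small shifts of this kind were common among bright probe sets. Ratios were below 0 in both pairs for 19 of the 35 genes (54.3%), against 28.9% of all measured genes, and above 0 in both for 8 (22.9%), against 29.1%. A ratio set to 0 because both arrays were at the floor enters neither share. Of the 35 genes 33 were above the floor on all arrays, against 10891 of all 14083, so the shares are not fully alike. Of the 35 genes, 10 had a mean signal of at least 10000, and their median log2 ratio was -0.31 with E-cadherin high and -0.26 with it low. Over all 570 genes that bright the medians were -0.21 and -0.17. After quantile normalization the medians were -0.08 and -0.14 for the 10 genes and -0.02 and -0.04 for the 570. Bright genes in general thus also lay below 0, and the size of the shift depended on the scaling. Ratios were below 0 in both pairs for 9 of the 10 bright members (90%) and for 60.9% of the 570 bright genes as deposited, and for 9 of the 10 and 39.3% after quantile normalization, where 19 of the 35 members (54.3%) and 29.8% of all measured genes were below 0 in both pairs. The 25 measured genes below 10000 had a median of 0.01 over both pairs.

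**Figure D2:**
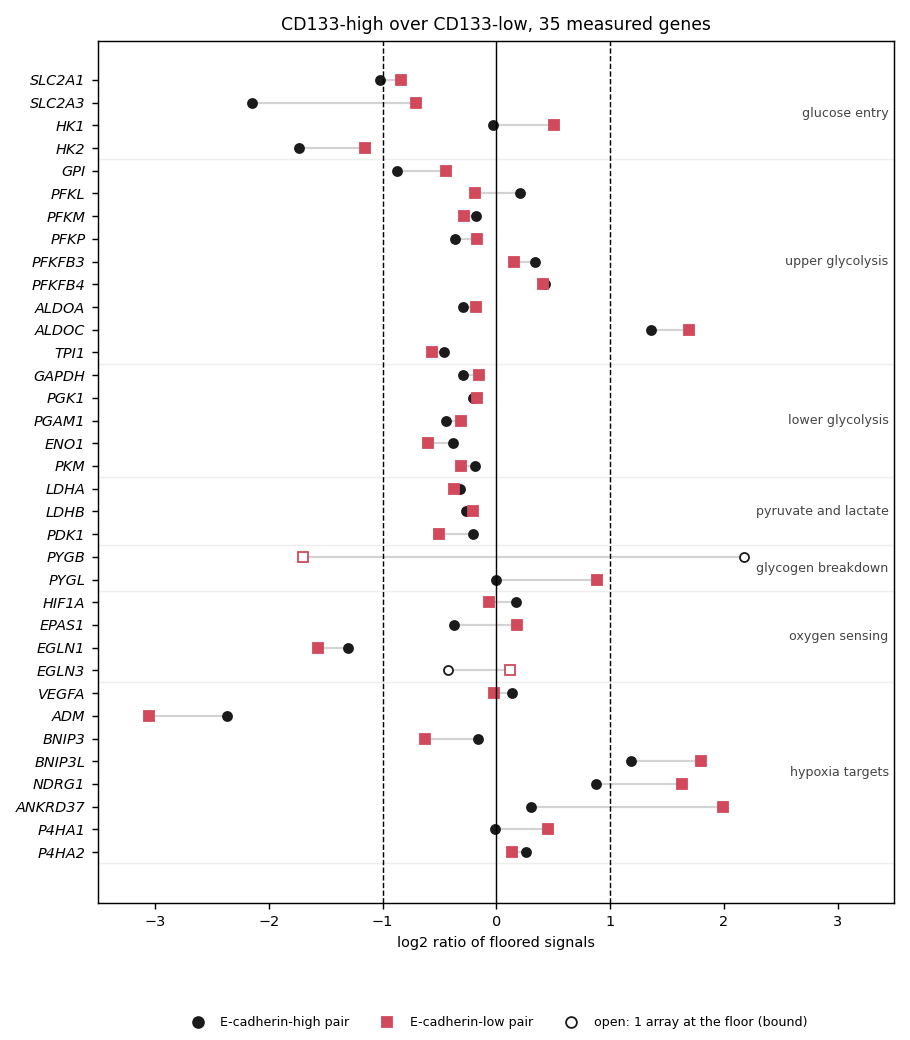
log2 ratio of CD133-high over CD133-low signal for the 35 measured genes by role, circles for the E-cadherin-high and squares for the E-cadherin-low pair, open where 1 array was at the floor, with dashed lines at 2-fold. ADM, HK2, EGLN1, ALDOC and BNIP3L have both symbols beyond the same dashed line, the lower glycolysis genes sit just below 0, and PYGB has its symbols on opposite sides.

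Among the oxygen sensors and HIF subunits, EGLN1 was counted. EGLN1, the main prolyl hydroxylase PHD2 that marks HIF for degradation, read 2016 and 2145 on the CD133-high arrays, against 4989 and 6354 on the CD133-low arrays. The ratios were 2.47-fold and 2.96-fold lower, with little difference between the E-cadherin states within each CD133 group (fitted effect -1.44, SE 0.19, limma adjusted p = 0.017). Its other probe sets above the floor gave -0.98 and -1.38, and -1.51 and -1.18. As the mean over all its probe sets, 1 of them below the floor, EGLN1 had a ratio of -0.99 and was no longer counted. HIF1A, the broadly expressed alpha subunit, was bright and nearly level (9912 to 11194, log2 ratios of 0.18 and -0.06). EPAS1, the HIF-2 alpha subunit, had -0.37 and 0.19. EGLN3, the strongly inducible PHD3, was at or near the floor, with 38.1 to 71.9 over the 4 arrays.

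The 8 measured hypoxia targets lay on both sides of 0. Besides ADM, which was lower, BNIP3L was counted as higher. BNIP3L, also called NIX, is a mitochondrial receptor for mitophagy, and read 3850 and 4471 on the CD133-high arrays, against 1696 and 1285 on the CD133-low arrays. Its ratios were 2.27-fold and 3.48-fold higher (fitted effect 1.49, SE 0.23, limma adjusted p = 0.029), and its other probe set gave log2 ratios of 0.92 and 1.57. The related receptor BNIP3, a classical HIF target, did not share this, with 5730 and 4181 against 6423 and 6463 and ratios of -0.16 and -0.63.

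NDRG1, a stress-induced protein tied to differentiation, read 1029 and 1492 on the CD133-high arrays, against 561 and 480 on the CD133-low arrays. It was 1.83-fold and 3.11-fold higher, short of the threshold in the E-cadherin-high pair. ANKRD37, a small HIF target with ankyrin repeats, read 1298 and 2254 against 1048 and 566, or 1.24-fold and 3.98-fold higher. VEGFA, the main angiogenic growth factor, was level by its brightest probe set (2377 to 2833, ratios of 0.14 and -0.02), and its 3 other probe sets above the floor ranged from -0.71 to -0.23 with E-cadherin high and from -0.95, a bound, to 0.45 with it low. The collagen prolyl hydroxylases P4HA1 (-0.01 and 0.45) and P4HA2 (0.26 and 0.14) lay near 0. The median of the 8 targets was 0.21 over both pairs, with a range from -2.71 to 1.49.

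**Figure D3:**
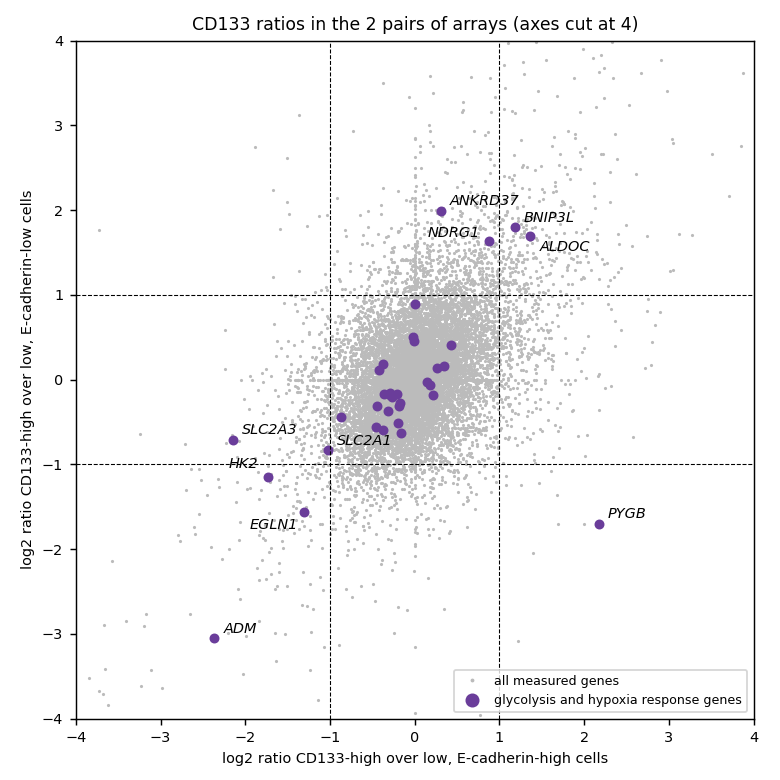
CD133 log2 ratio in E-cadherin-high cells (horizontal) against that in E-cadherin-low cells (vertical) for all 14083 measured genes in grey and the 35 genes in purple, with dashed lines at 2-fold and axes cut at 4. Named are the genes beyond 2-fold in at least 1 pair: ADM, HK2 and EGLN1 lie in the lower left corner, ALDOC and BNIP3L in the upper right, and PYGB alone in the lower right.

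Within single pairs more genes passed 2-fold. In E-cadherin-high cells 3 of 35 were higher (ALDOC, BNIP3L and PYGB), where 5.04% of all genes were, and 5 were lower (SLC2A1, SLC2A3, HK2, EGLN1 and ADM), where 3.24% were. In E-cadherin-low cells 4 were higher (ALDOC, BNIP3L, NDRG1 and ANKRD37) against 8.11% of all genes, and 4 were lower (HK2, PYGB, EGLN1 and ADM) against 4.27%. SLC2A1 and SLC2A3 thus passed the threshold among E-cadherin-high cells, and NDRG1 and ANKRD37 among E-cadherin-low cells. The CD133 ratio of SLC2A3 was higher by 1.43 on the log2 scale in E-cadherin-low than in E-cadherin-high cells, and that of ANKRD37 by 1.68, but with 1 array per group these differences were not tested.

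Glycogen phosphorylases, which release glucose 1-phosphate from glycogen, differed between isoforms. PYGL, the liver isoform, read 5415 and 6244 on the CD133-high arrays, against 5408 and 3373 on the CD133-low arrays, log2 ratios of 0.00 and 0.89. PYGB, the brain isoform, read 259 and 196 on the arrays of E-cadherin-high CD133-high and E-cadherin-low CD133-low cells, and 25.9 and 31.8 on the others, below the floor. It was higher by at least 4.52-fold in the first pair and lower by at least 3.25-fold in the other, opposite directions, as was so for 0.227% of all measured genes. The same 4 values put PYGB lower by at least 4.30-fold, then higher by at least 3.41-fold, in the E-cadherin pairs, as for 0.234% of all genes. The other PYGB probe set was below the floor on all arrays.

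**Figure D4:**
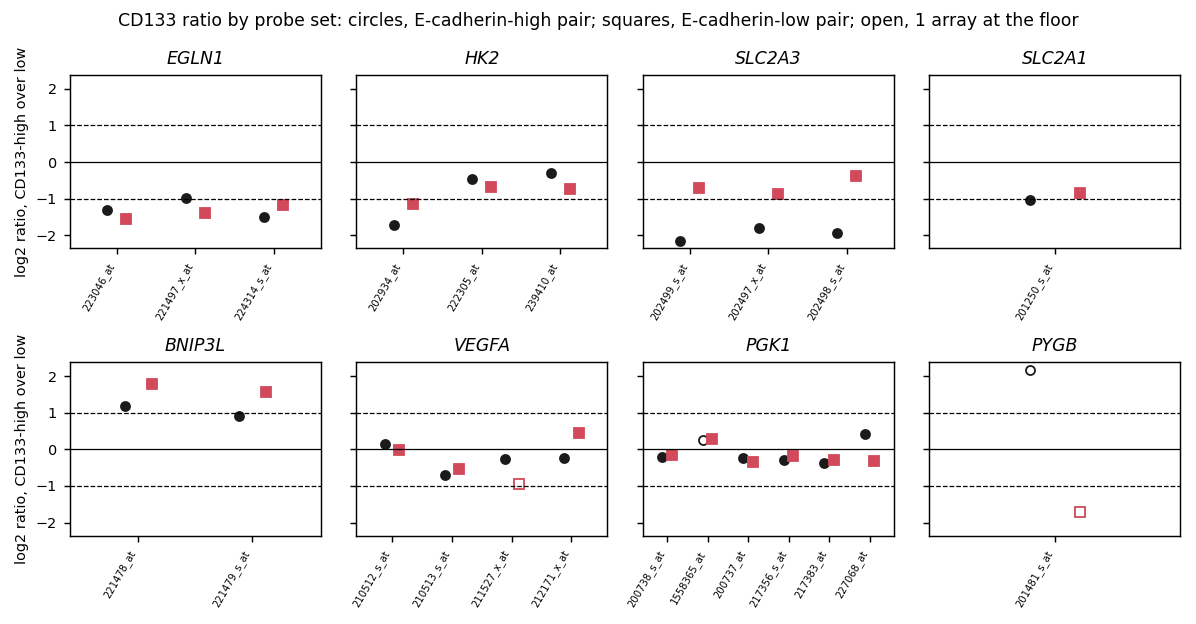
CD133 log2 ratio of each probe set above the floor on at least 1 array for 8 genes, circles for the E-cadherin-high and squares for the E-cadherin-low pair, open where 1 array was at the floor, dashed lines at 2-fold. The 3 EGLN1, 3 HK2, 3 SLC2A3 and 2 BNIP3L probe sets each lie on the same side of 0, those of VEGFA and PGK1 on both sides, and PYGB rests on 1 probe set.

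Genes next to these pathways were taken from further lists. Over all measured genes 2.45% were higher and 1.12% lower with CD133 by the same rule, the shares to set beside each count on these lists. Of 25 measured other genes of glycolysis and pyruvate use, 2 were higher and 1 was lower with CD133. SLC2A6, a lysosomal glucose transporter family member, read 960 and 557 against 357 and 205, or 2.69-fold and 2.71-fold higher. SLC2A10, the transporter GLUT10, read 306 and 172 and was at the floor on the CD133-low arrays, so it was higher by at least 5.33-fold and 3.02-fold. MPC1, a subunit of the carrier that takes pyruvate into mitochondria, read 697 and 322 against 1754 and 2033, or 2.52-fold and 6.30-fold lower.

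Of 20 genes of the tricarboxylic acid cycle, SUCLG2, a succinyl-CoA ligase subunit, was higher (1.13 and 1.16), and 0 were lower. None of 11 pentose phosphate genes and none of 17 glycogen genes was counted. Among 16 other regulators of HIF, CITED2, which competes with HIF for its coactivator p300, was higher, with 1251 and 3141 against 442 and 662, or 2.83-fold and 4.75-fold. Where 2.45% of all measured genes were higher and 1.12% lower, 3 of 38 other hypoxia targets were higher and 1 was lower with CD133. These were the mitochondrial adenylate kinase AK4 (1.28 and 1.08), the nuclear coactivator PNRC1 (1.03 and 1.78), the scaffold AKAP12 (1.30 and 1.32) and, lower, the secreted stanniocalcin STC2 (-1.09 and -2.48). The median of that list was 0.17 over both pairs.

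Among 19 genes of mitophagy, PINK1, the kinase that marks damaged mitochondria, was higher beside BNIP3L, with 1129 and 1330 against 439 and 424, or 2.57-fold and 3.14-fold. Of 13 angiogenic ligands and genes of the adrenomedullin receptor and its relatives, 2 were higher and 1 was lower, where 2.45% and 1.12% of all measured genes were. CALCRL, a receptor subunit shared by adrenomedullin and related peptides, was 5.93-fold and 2.98-fold higher (1508 and 457 against 254 and 154), in the direction opposite to ADM. The lymphatic growth factor VEGFC was also higher (4125 and 4418 against 2057 and 1668). CALCB, a peptide related to adrenomedullin, was lower (-1.99 and -3.03). None of 15 collagen-modifying genes and none of 9 housekeeping genes was counted, and the housekeeping median was -0.13.

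The E-cadherin comparison asks which genes differ between the types that the labels call mesenchymal and epithelial, E-cadherin-low over E-cadherin-high, within CD133-high and then within CD133-low cells. None of the 35 genes was at least 2-fold higher in both pairs, and none was at least 2-fold lower, where 0.476% and 0.54% of all measured genes were. The absence of a lower gene turned on the scaling, since with equal array medians EPAS1 was counted as lower. Their median log2 ratio over both pairs was -0.14, against 0 for all genes, and -0.10 over the 570 bright genes. Ratios were below 0 in both pairs for 15 genes (42.9%, against 24.4% of all genes) and above 0 in both for 4 (11.4%, against 21.7%). As in the CD133 comparison, ratios set to 0 at the floor enter neither share and were more common among all genes. The additive limma fit called 0 of the 35, where it called 0.0639% of all genes higher and 0.0852% lower. At an unadjusted p under 0.05 that fit had 3 of the 35 genes, and 6.92% of all genes. The fit with a constant prior variance also called 0, with 3 of the 35 genes, and 6.82% of all genes, at an unadjusted p under 0.05.

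EPAS1 came closest to the threshold and passed it with equal array medians (2.04-fold and 2.65-fold lower). It read 1283 and 1659 in E-cadherin-high cells (CD133-high, then CD133-low) and 708 and 622 in E-cadherin-low cells. The gene was 1.81-fold and 2.67-fold lower as deposited (fitted effect -1.14, SE 0.27, limma adjusted p = 0.35). HIF1A, the other alpha subunit, had ratios of -0.16 and 0.08. PFKFB3 lay on the other side, with 839 and 663 against 1364 and 1221, or 1.63-fold and 1.84-fold higher. Its relative PFKFB4 read 701 and 520 against 494 and 372, ratios of -0.51 and -0.48, opposite in sign to PFKFB3. ADM was higher by 0.55 and 1.24, and the signal in E-cadherin-low CD133-low cells was the highest of the 4.

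Single pairs again held more. Among CD133-high cells SLC2A3 was 2.11-fold higher, the only one of 35 (3.81% of all genes were), and PYGB was lower (2.53% of all genes were). Among CD133-low cells PYGB and ADM were higher (2.63% of all genes) and EPAS1 was lower (2.87%). For SLC2A3 the other pair had a ratio of -0.36. ANKRD37 had 0.80 and -0.89, PYGL 0.21 and -0.68, and NDRG1 0.54 and -0.23. By their brightest probe sets these genes and SLC2A3 thus read higher in E-cadherin-low cells with CD133 high and lower with it low. The other SLC2A3 probe sets gave 0.92 and 0.004, and 1.06 and -0.50, and the other ANKRD37 probe set was near or below the floor. The change of sign was not tested, and its share among all genes was not counted. Each array enters 1 pair of each comparison, so these values and the CD133 ratios above come from the same 4 signals.

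**Figure D5:**
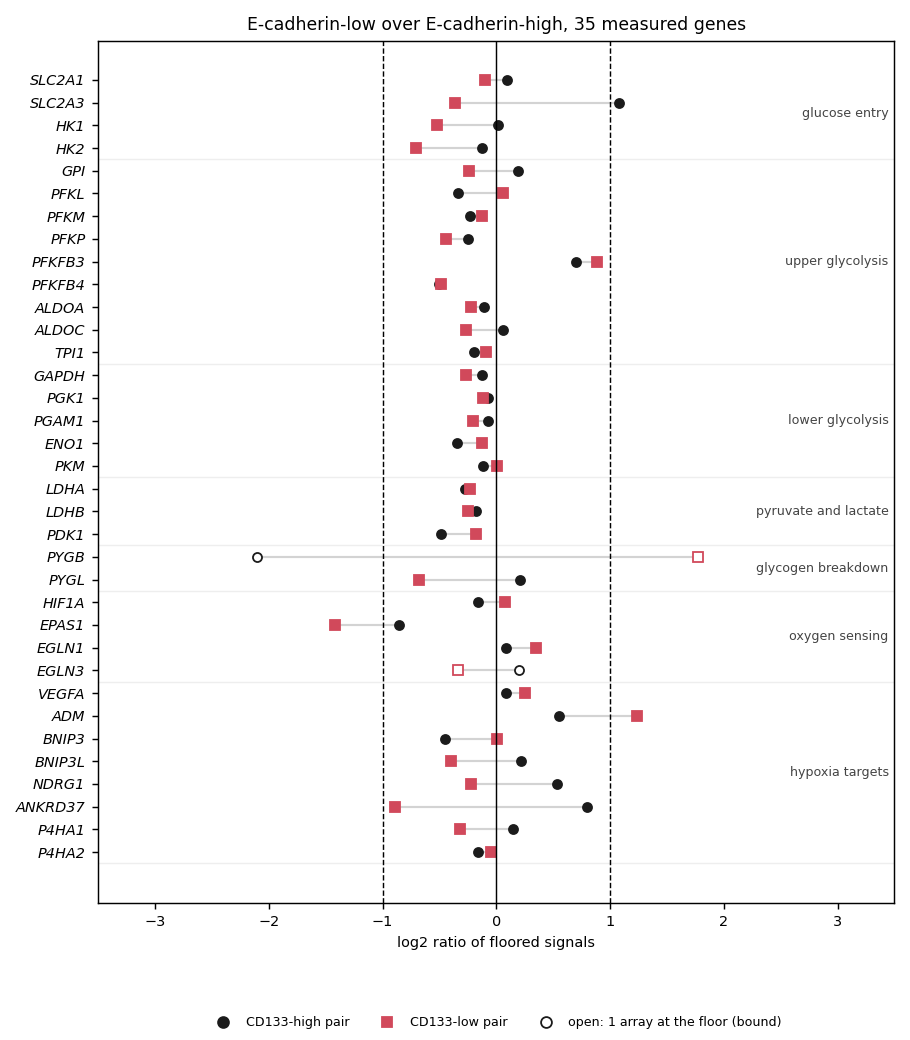
log2 ratio of E-cadherin-low over E-cadherin-high signal for the 35 measured genes by role, circles for the CD133-high and squares for the CD133-low pair, open where 1 array was at the floor, with dashed lines at 2-fold. No gene has both symbols beyond the same dashed line, EPAS1 comes closest at -0.86 and -1.42, and most enzymes lie slightly below 0.

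On the further lists ANGPT1, the ligand of the receptor TEK, was higher in E-cadherin-low cells (75 and 65.6 against 300.4 and 163, ratios of 2.01 and 1.31), as was AKAP12 (3.15 and 3.13). No other gene of the metabolic and hypoxia lists was counted in this comparison, in which 0.476% of all measured genes were higher and 0.54% lower. CITED2 was higher by 1.33 with CD133 high and by 0.58 with it low.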

How the data were processed

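The authors deposited 1 intensity per probe set and array on a linear scale, made with MAS5 per the submitters' processing notes (its version is not given in the sources used here). No detection calls or scan batches entered the analysis. Of 54675 probe sets, 62 were controls. Genes were named from the platform annotation, and probe sets with several symbols were left out. The probe set brightest on average, in log2, stood for its gene. The floor was the 50th percentile of each array. Where both arrays were at the floor the log2 ratio was set to 0, and where 1 was, the fold is a bound, written "at least". A gene was counted at 2-fold or more in the same direction in both pairs, which involves no test, and the precision is limited by there being 4 arrays. The additive limma fit used floored log2 intensity computed from the deposited values, with a prior variance trend and a Benjamini-Hochberg threshold of 0.05 over all 14083 measured genes.

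The 38 genes and the 14 further lists were chosen with earlier results of these data known. All 38 were to be named, and of the further lists the counted genes; CITED2 under E-cadherin was named after its values were seen, as was the signal limit of 10000 for bright genes. Alternatives were equal array medians, quantile normalization, floors at the 65th and 25th percentiles or none, 3-fold and 1.5-fold as thresholds, the mean over probe sets, no shared probe sets and limma. The counting rule and the limma fit were also run on simulated arrays with the same noise for all genes. The planted changes were larger than the 2-fold threshold and lay in genes well above the floor. That run did not address dim genes or changes near the threshold. Tools were limma 3.58.1 in R 4.3.3, and Python 3.11.15 with pandas 2.3.3, numpy 2.4.6 and matplotlib 3.10.9.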

Additional observations from a re-analysis of the deposited data

Results flagged for a closer look

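PYGB differed between groups: its CD133 log2 ratio was 2.18 with E-cadherin high and -1.70 with it low, and its E-cadherin log2 ratio was -2.10 with CD133 high and 1.77 with it low. All 4 values are bounds, since 1 array of each pair was at the floor, and the difference was not tested.

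Data outside the comparisons also carried signal. The 2 probe sets annotated to both SLC2A14 and SLC2A3, which were left out because they carry several symbols, reached 7662 and 10950, both on the array of E-cadherin-high CD133-low cells. Their CD133 log2 ratios were -2.30 and -0.74 for the dimmer and -2.06 and -0.14 for the brighter, each larger in size among E-cadherin-high cells, as for the probe sets of SLC2A3 alone.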

How the results depend on the processing

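The number of genes higher with CD133 went from 2 to 3 at 1.5-fold, where NDRG1 joined, to 0 at 3-fold, to 1 by the additive limma fit (BNIP3L) and to 0 by that fit without a prior variance trend, a setting added after seeing the data. The number lower went from 3 to 5 at 1.5-fold, where SLC2A1 and SLC2A3 joined, and to 1 (ADM) at 3-fold, as the mean over probe sets and by limma without the trend. In the E-cadherin comparison EPAS1 was counted as lower with equal array medians and at 1.5-fold, a count of 1 in place of 0, and PFKFB3 as higher at 1.5-fold, also 1 in place of 0. The median CD133 ratio of the 35 genes went from -0.22 to -0.065 after quantile normalization and to -0.17 without shared probe sets. Neither the median CD133 ratio nor the median E-cadherin ratio changed sign under these settings, nor did the mean CD133 ratio of any counted gene. The ratios of the genes not counted were not followed across the settings. The range of the mean CD133 ratio was taken over the 7 settings that can change a gene's ratio. It was -1.46 to -0.84 for HK2 and -1.44 to -0.99 for EGLN1, both smallest in size as the mean over probe sets. The range was -2.74 to -2.70 for ADM, 1.46 to 1.54 for ALDOC and 1.37 to 1.499 for BNIP3L. ADM and ALDOC have a single probe set each, so the settings on probe sets could not move them. The floor settings did not reach ADM either, so its narrow range reflects the scalings alone. The pairs and the additive fit hold the other marker fixed. Beyond that, no paired analysis was possible because the labels carry no replicate numbers, and with 1 array per group no replicate could be left out. ALDOC and SLC2A1 are dim, near the middle of all genes by signal, and CA9, SLC16A3, ENO2 and EGLN3 allow no ratio or little.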
